A study of Mus musculus with 9 samples.

Results

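Wnt proteins are the secreted ligands that start Wnt signalling, and RNA of 10 of them (Wnt3, Wnt3a, Wnt2b, Wnt4, Wnt5a, Wnt5b, Wnt6, Wnt7b, Wnt8a and Wnt11) was followed here through bulk RNA-seq libraries of mouse epiblast-like cells. The 10 genes were found by symbol among the 23453 genes of the count table, and each had 1 row. The cells, wild-type and of a line not given for these libraries in the sources used here, were compared in 3 states of 3 libraries each, 9 libraries in all. EpiLCs were naive embryonic stem cells (ESCs) kept for 48 h in N2B27 medium with 1% KSR (a serum replacement), Activin A and FGF2. Both other states were EpiLCs cultured for a further 24 h without added FGF2. One, the anterior epiblast-like cell (aEpiLC), received N2B27 alone by the labels and N2B27 with 1% KSR by the study's methods. The other, the posterior epiblast-like cell (pEpiLC), received N2B27 with 1% KSR, 20 ng/ml Activin A and 3 µM CHIR99021, an inhibitor of the kinase GSK3 that switches on the β-catenin branch of the Wnt pathway from inside the cell.

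Wnt ligands are lipid-modified by Porcn and carried to the cell surface by Wls. On the receiving cell they bind Frizzled receptors together with Lrp5 or Lrp6 to stabilise β-catenin, which acts with TCF/LEF factors on DNA, or together with Ror and Ryk receptors to change cell shape and movement without β-catenin. Soluble inhibitors of the Sfrp and Dkk families and the enzyme Notum limit their reach, and R-spondins raise the number of receptors. In the mouse embryo Wnt3 is needed for the primitive streak to form, and Wnt3a and Wnt8a are made in the streak and the tissue derived from it. Wnt5a, Wnt5b and Wnt11 are known mainly for signalling without β-catenin and for the movements of gastrulation. Wnt4, Wnt6, Wnt7b and Wnt2b are best known from later organs such as the kidney, gonad and lung.

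Total counts were 20560583 to 23417935 per library, and 3 counts, taken as the detection floor, came to 0.13 to 0.143 CPM (counts scaled to a common library size). All 90 values of the 10 ligands were whole numbers within 0.005, although RSEM can divide a read between genes. Of 3 epiblast markers, Pou5f1 was read at 789 to 1140 CPM and Fgf5 at 77.3 to 178 CPM over the 9 libraries, with Fgf5 highest in pEpiLCs. Dnmt3b was at 2360 to 2820 CPM in EpiLCs and aEpiLCs and lower in all pEpiLC libraries (744, 1600 and 1390 CPM), with a log2 fold change against aEpiLCs of -1.02 (adjusted p = 0.0303) that was -0.75 without pEpiLC replicate 1, short of the limit on size used for calls. The 6 primitive streak markers (T, Mixl1, Eomes, Gsc, Mesp1 and Fgf8) summed to 5.99 to 8.21 CPM in EpiLCs and aEpiLCs and to 2390, 600 and 590 CPM in pEpiLC replicates 1, 2 and 3. Replicate 1 of pEpiLC stood apart: 324 and 333 of 15797 genes differed by more than 4-fold between it and replicates 2 and 3, against 57 to 76 for the other replicate pairs. Mesp1, a nascent mesoderm gene, was at 71.1 CPM in that library against 0 and 0.0919 CPM in the other pEpiLC libraries. The 7 extraembryonic endoderm markers in the table summed to 66.2 CPM in it, of which Gata6 gave 46.5 and Gata4 12.3 CPM, against 7.95 CPM in each of the other pEpiLC libraries and 11.1 to 17.4 CPM elsewhere, while Sox7 and Apoa1 of that list were at 0. The 5 fibroblast markers summed to 13.4 to 24.2 CPM over all 9 libraries, of which Dcn fell from 4.81 to 7.25 CPM in EpiLCs to 1.31 to 2.11 CPM in aEpiLCs and 0.184 to 0.304 CPM in pEpiLCs, and Col1a2 was at 1.32 to 1.96, 2.2 to 3.33 and 4.17 to 10.2 CPM. The 8 naive ESC markers summed to 36.4 to 39.8 CPM in EpiLCs, 20 to 21.7 CPM in aEpiLCs and 23.9 to 28.1 CPM in pEpiLCs, with no overlap between states. Zfp42 gave 18.7 to 19.3 CPM of the EpiLC sums, and not every marker fell with the sum. Klf2 was at 1.26 to 1.84 CPM in EpiLCs and 2.56 to 3.99 CPM in aEpiLCs. Esrrb was at 3.64 to 4.81 CPM in EpiLCs and 5 to 5.7 CPM in pEpiLCs. Genes called between pEpiLCs and another state are therefore given with and without replicate 1, and the part that a different mix of cells had in them was not tested. In bulk libraries, fewer cells of a type and less RNA per cell cannot be told apart.

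The DNA just before the start sites of the ligand genes was searched for the letters that TCF/LEF factors recognise (CTTTGAT or CTTTGAA, either strand), since CHIR99021 acts through these factors. RefSeq windows of 300 bases on GRCm38.p6, with 250 bases before a start and 50 after it, were at hand for 7 of the 10 ligands, 10 windows in all, and those of Wnt5a, Wnt7b and Wnt8a were not searched here. One window each of Wnt5b and Wnt11 held CTTTGAT, and none held AGGTGTGA (T-box factors) or GTCTAGAC (SMAD factors). Among 32851 windows over the genome 8.65% held either TCF/LEF motif, 3.73% held CTTTGAT, 1.28% held AGGTGTGA and 0.213% held GTCTAGAC. The stretches before the starts are printed for Wnt11 and Wnt5b, the ligands with a match, and for Wnt3, the streak-inducing ligand, which had none, in each case only as far as the first annotated exon base. Capitals mark CTTTGAT or, on the opposite strand, ATCAAAG, and each line reads 5′ to 3′ on the strand of the gene. The Wnt11 stretch is chr7:98834862-98835111 on the plus strand, before one of its 2 starts, the Wnt5b stretch chr6:119449387-119449636 on the minus strand, before one of its 3 starts, and the Wnt3 stretch chr11:103773925-103774149 on the plus strand.
Wnt11: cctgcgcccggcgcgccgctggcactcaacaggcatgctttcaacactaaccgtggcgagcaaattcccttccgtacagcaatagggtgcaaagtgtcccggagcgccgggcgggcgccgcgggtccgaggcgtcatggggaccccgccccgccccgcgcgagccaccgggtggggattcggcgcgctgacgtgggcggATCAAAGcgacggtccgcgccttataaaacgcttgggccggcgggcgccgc
Wnt5b: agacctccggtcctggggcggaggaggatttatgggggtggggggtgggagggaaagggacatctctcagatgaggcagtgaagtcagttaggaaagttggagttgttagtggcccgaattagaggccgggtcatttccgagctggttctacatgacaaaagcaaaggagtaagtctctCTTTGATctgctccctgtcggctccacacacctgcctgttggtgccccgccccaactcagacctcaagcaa
Wnt3: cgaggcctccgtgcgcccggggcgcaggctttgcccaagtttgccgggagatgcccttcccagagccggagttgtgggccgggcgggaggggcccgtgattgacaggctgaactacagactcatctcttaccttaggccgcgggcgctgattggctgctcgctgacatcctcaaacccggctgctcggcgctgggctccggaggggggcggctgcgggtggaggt
The match began 51 bases before that start of Wnt11 and 71 bases before that start of Wnt5b, and the windows at their other starts held none. A match of letters is a description of the sequence and was not tested as a binding site.

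Wnt3 (ENSMUSG00000000125.5, GRCm38 chromosome 11, 103774150 to 103817957, plus strand) was expressed at 5.88, 3.54 and 4.83 CPM in EpiLC replicates 1, 2 and 3. It was at 3.85, 1.39 and 2.53 CPM in aEpiLCs and at 93.8, 54.7 and 61.6 CPM in pEpiLCs. Every pEpiLC library lay above all 6 others, while the EpiLC and aEpiLC ranges overlapped. In these fits a gene was called where edgeR's quasi-likelihood test gave a Benjamini-Hochberg adjusted p below 0.05 over all genes tested and the log2 fold change was at least 1 in size. The log2 fold change of pEpiLCs was 3.90 (SE 0.265, adjusted p = 9.79e-05) against EpiLCs and 4.76 (SE 0.359, adjusted p = 0.000334) against aEpiLCs, and 3.64 and 4.50 without pEpiLC replicate 1. Against EpiLCs, aEpiLCs had a log2 fold change of -0.88 (SE 0.297, adjusted p = 0.0273), short of the limit on size.

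Wnt8a (ENSMUSG00000012282.2), the other abundant ligand of the streak, differed between all 3 states. Its levels were 0.793, 0.99 and 1.01 CPM in EpiLCs, 11.4, 5.98 and 6.85 CPM in aEpiLCs and 75.3, 108 and 116 CPM in pEpiLCs. No range touched another, and the EpiLC libraries were the lowest and the pEpiLC libraries the highest. Wnt8a rose from EpiLC to aEpiLC by 3.11 on the log2 scale (SE 0.278, adjusted p = 1.32e-06) and was higher still in pEpiLCs, by 3.63 against aEpiLCs (SE 0.27, adjusted p = 0.00033) and by 6.76 against EpiLCs (SE 0.224, adjusted p = 4.64e-06). In contrast to Wnt3, the lowest pEpiLC value was that of replicate 1, and without it the pEpiLC log2 fold changes were 3.80 and 6.93. The aEpiLC rise came without added Wnt agonist or Activin A. EpiLC libraries of the same age are not analysed here, so medium and the extra 24 h cannot be told apart in any comparison with EpiLCs.

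Wnt3a (ENSMUSG00000009900.7, chromosome 11, 59248033 to 59290752, minus strand), the ligand that mesoderm of the trunk depends on, was read mainly in 1 library. Its counts were 0, 0 and 1 in EpiLCs, 3, 1 and 1 in aEpiLCs and 442, 7 and 11 in pEpiLCs, the last being 21.1, 0.304 and 0.506 CPM. All pEpiLC libraries were above the others, yet replicate 1 was 52 times the mean of replicates 2 and 3. Wnt3a did not reach the level needed for the test, because fewer than 3 libraries passed the limit of about 0.46 CPM. The ratio of summed counts, scaled for library size, was 91.4 against aEpiLCs (95% counting interval 38.9 to 283) and 5.25 (1.88 to 18.1) without pEpiLC replicate 1. Against EpiLCs, with a single count over 3 libraries, the ratio was 458 (81.7 to 18100) and, without that replicate, 26.3 (4.15 to 1100). These intervals cover counting error only.

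Of the closely related Wnt5b and Wnt5a, both were higher in every pEpiLC library than in any EpiLC library, and Wnt5a also in every aEpiLC library. Wnt5b (ENSMUSG00000030170.14, chromosome 6, 119432531 to 119544347, minus strand) was at 3.82, 3.72 and 3.3 CPM in EpiLCs, at 2.67, 3.24 and 2.9 CPM in aEpiLCs and at 43.7, 20.1 and 17.6 CPM in pEpiLCs. All pEpiLC libraries were above the other 6, and all aEpiLC libraries were just below the EpiLC ones. Wnt5b rose in pEpiLCs by 2.93 on the log2 scale against EpiLCs (SE 0.362, adjusted p = 0.000885) and by 3.20 against aEpiLCs (SE 0.371, adjusted p = 0.00185). Without pEpiLC replicate 1 these were 2.41 and 2.68, and aEpiLCs against EpiLCs gave -0.30 (SE 0.188, adjusted p = 0.216).

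Wnt5a (ENSMUSG00000021994.15, chromosome 14, 28504750 to 28527448, plus strand) was at 0.187, 0.0471 and 0.439 CPM in EpiLCs, at 1.74, 0.99 and 1.38 CPM in aEpiLCs and at 13.5, 0.826 and 0.689 CPM in pEpiLCs. All aEpiLC and all pEpiLC libraries were above the EpiLC ones, and pEpiLC replicate 1 was 17.9 times the mean of replicates 2 and 3, both of which lay below every aEpiLC library. From EpiLC to aEpiLC Wnt5a rose by 2.55 on the log2 scale (SE 0.507, adjusted p = 0.00109), although with all 9 libraries in one fit, which brings in the spread of the pEpiLCs, the adjusted p was 0.148, the highest of 12 alternatives that reached down to 2.66e-07. Against EpiLCs, pEpiLCs were higher by 4.45 (SE 1.39, adjusted p = 0.0336), by 1.73 without replicate 1, and the call was lost when any single EpiLC library was left out (adjusted p = 0.0775 to 0.115). Against aEpiLCs the value was 1.87 (SE 1.07, adjusted p = 0.28) with all libraries and -0.84 (adjusted p = 0.153) without replicate 1, so no direction can be given. Exons of Wnt5a share 358 bases with Gm2670 on the opposite strand, and reads there cannot be assigned where the strandedness of the libraries is not stated.

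Wnt11 (ENSMUSG00000015957.12, chromosome 7, 98835112 to 98855195, plus strand) was at 0.233, 0.613 and 0.264 CPM in EpiLCs, at 0.235, 0.09 and 0.368 CPM in aEpiLCs and at 8.25, 10.9 and 10.8 CPM in pEpiLCs. The pEpiLC libraries lay close together and far above the other 6, whose ranges overlapped. Of the 9 ligands tested it had the largest fitted change between pEpiLCs and aEpiLCs, a log2 fold change of 5.40 (SE 0.354, adjusted p = 0.000172), and 4.76 (SE 0.332, adjusted p = 0.000111) against EpiLCs. Without pEpiLC replicate 1 these were 5.53 and 4.88. In aEpiLCs the counts were 5, 2 and 8, so the fitted fold change rests on few reads there, and Wnt11 was too low to be tested between aEpiLCs and EpiLCs. A further limit on its counts is that its exons share 364 bases with Gm8398 on the opposite strand. Of its 50-base stretches, 7.463% also occur in other genes on either strand. That search takes in the bases shared with Gm8398, so it is not a separate limit. Such stretches were also found for Wnt4 (4.334%), Wnt7b (3.882%) and Wnt5a (3.383%), and not for the remaining ligands.

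**Figure D1:**
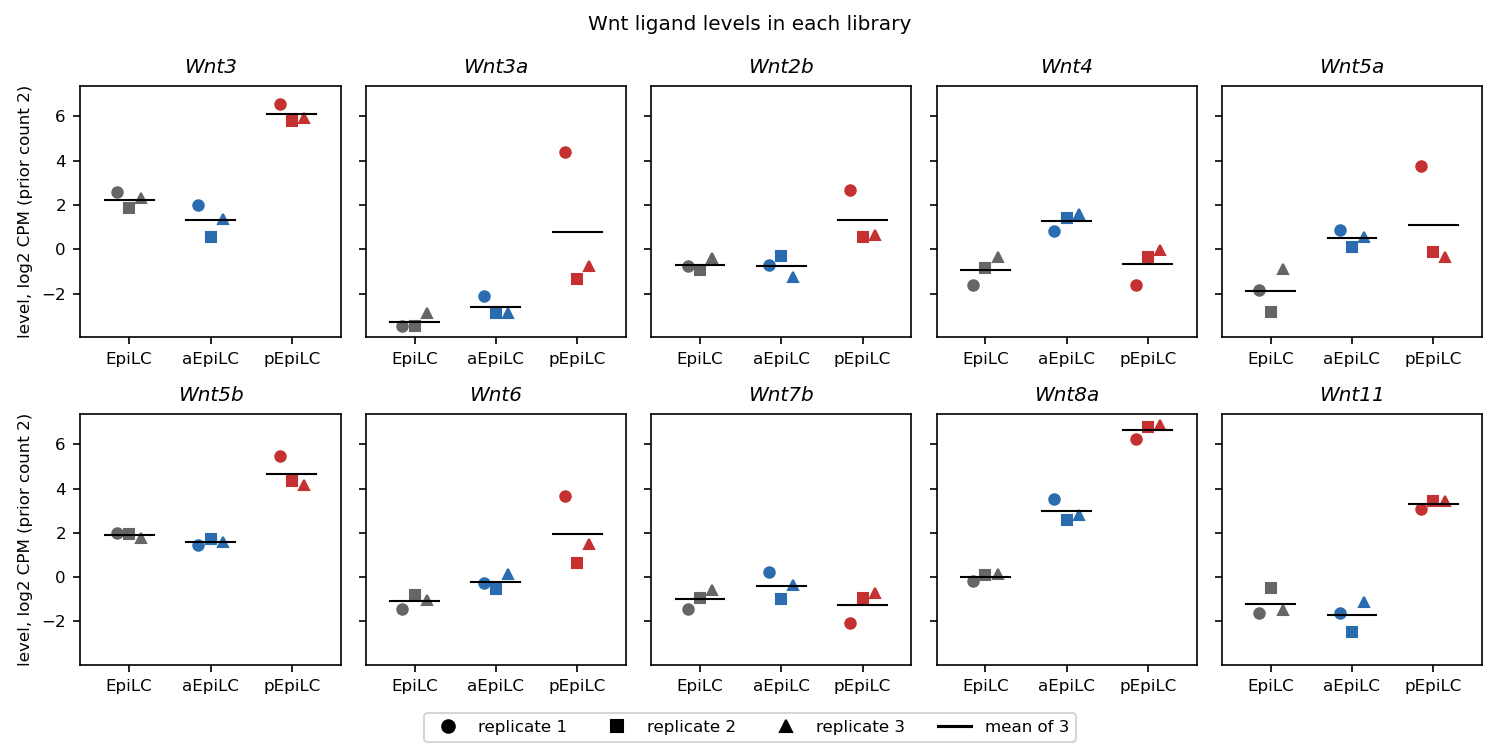
Level of each of the 10 Wnt ligands in each library, as log2 CPM with a prior count of 2 on the vertical axis, by state on the horizontal axis, with 1 point per library and a line at the mean of 3. Wnt3, Wnt5b, Wnt8a and Wnt11 are high in all 3 pEpiLC libraries, while Wnt3a, Wnt2b, Wnt5a and Wnt6 are highest in pEpiLC replicate 1.

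Wnt6 and Wnt2b, ligands of the β-catenin branch in later epithelia, were low in EpiLCs and aEpiLCs. Wnt6 (ENSMUSG00000033227.7, chromosome 1, 74771892 to 74785322, plus strand) was at 0.28, 0.471 and 0.395 CPM in EpiLCs, at 0.751, 0.585 and 1.01 CPM in aEpiLCs and at 12.6, 1.48 and 2.71 CPM in pEpiLCs. No range overlapped another, and replicate 1 was 6.03 times the mean of the other pEpiLC libraries. Wnt6 rose in pEpiLCs against EpiLCs by 3.88 on the log2 scale (SE 0.879, adjusted p = 0.0101), and by 2.46 (adjusted p = 0.000172) without replicate 1. Against aEpiLCs the value was 2.83 (SE 0.805, adjusted p = 0.0518), just outside the limit, and 1.42 (adjusted p = 0.0206), inside it, without replicate 1. Between aEpiLCs and EpiLCs it was 1.02 (SE 0.407, adjusted p = 0.0536).

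Wnt2b (ENSMUSG00000027840.5, chromosome 3, 104945272 to 104961921, minus strand) was at 0.513, 0.424 and 0.659 CPM in EpiLCs, at 0.516, 0.72 and 0.322 CPM in aEpiLCs and at 6.39, 1.39 and 1.47 CPM in pEpiLCs. The first 2 states overlapped and all pEpiLC libraries were above both. In pEpiLCs Wnt2b rose by 2.54 on the log2 scale against EpiLCs (SE 0.675, adjusted p = 0.0189) and by 2.55 against aEpiLCs (SE 0.697, adjusted p = 0.0458), and without pEpiLC replicate 1 by 1.44 and 1.46. Both calls were lost when any single library of the other state was left out, with adjusted p of 0.0569 to 0.0746 against EpiLCs and 0.117 to 0.156 against aEpiLCs. Between aEpiLCs and EpiLCs the value was -0.04 (SE 0.423, adjusted p = 0.954).

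Wnt4 and Wnt7b were not called higher in pEpiLCs in any test. Wnt4 (ENSMUSG00000036856.4, chromosome 4, 137277489 to 137299726, plus strand), which kidney tubules and the ovary need to form, was at 0.233, 0.471 and 0.703 CPM in EpiLCs, at 1.69, 2.61 and 2.94 CPM in aEpiLCs and at 0.238, 0.695 and 0.873 CPM in pEpiLCs. All aEpiLC libraries were above the other 6, whose ranges overlapped. Wnt4 rose from EpiLC to aEpiLC by 2.34 on the log2 scale (SE 0.378, adjusted p = 0.000223) and was lower in pEpiLCs than in aEpiLCs by 1.99 (log2 fold change -1.99, SE 0.446, adjusted p = 0.0243), or -1.61 without pEpiLC replicate 1. The call between pEpiLCs and aEpiLCs was lost without any 1 of the aEpiLC libraries or without pEpiLC replicate 2 (adjusted p = 0.0505 to 0.0958). Between pEpiLCs and EpiLCs the value was 0.38 (SE 0.564, adjusted p = 0.615), or 0.75 (adjusted p = 0.218) without replicate 1.

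Wnt7b (ENSMUSG00000022382.15, chromosome 15, 85535437 to 85582473, minus strand), a ligand of lung and kidney epithelium, was at 0.28, 0.424 and 0.571 CPM in EpiLCs, at 1.08, 0.405 and 0.69 CPM in aEpiLCs and at 0.143, 0.435 and 0.506 CPM in pEpiLCs. All 3 ranges overlapped. The log2 fold change was -0.98 (SE 0.542, adjusted p = 0.263) in pEpiLCs against aEpiLCs, or -0.61 (adjusted p = 0.445) without pEpiLC replicate 1, and 0.75 (SE 0.457, adjusted p = 0.195) in aEpiLCs against EpiLCs, and it was too low to be tested between pEpiLCs and EpiLCs. A difference was not detectable at this depth, with 3 to 23 counts per library, and 324 bases of its exons are shared with AU022754 on the opposite strand.

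**Figure D2:**
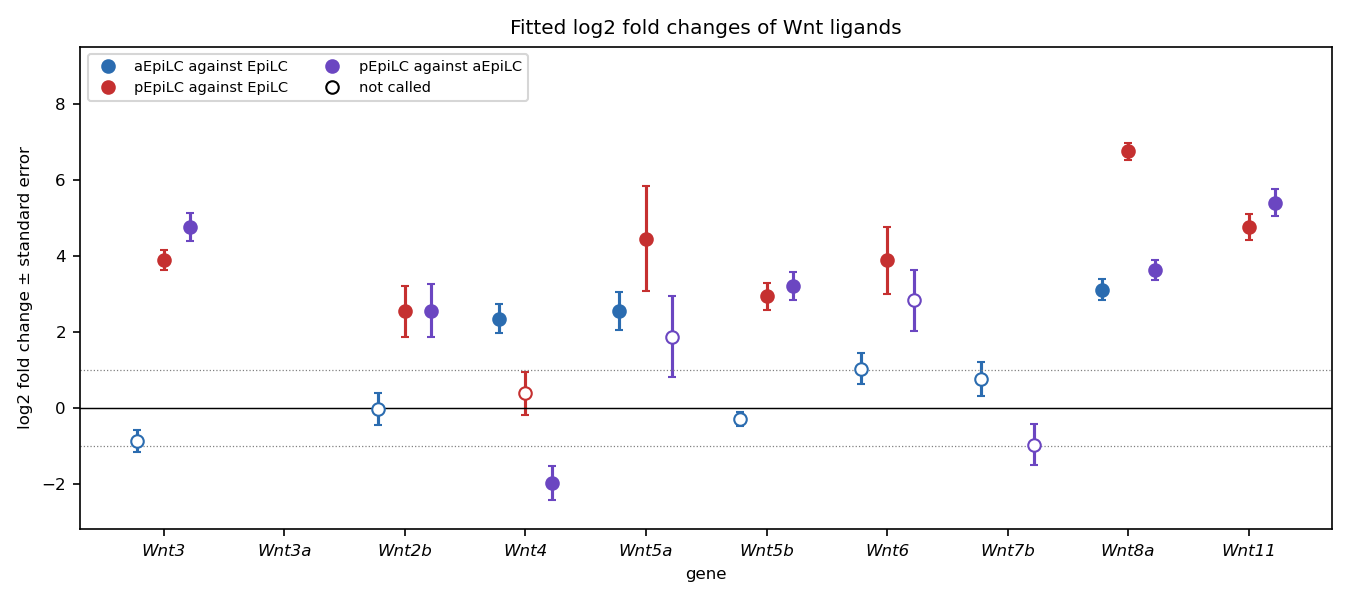
Fitted log2 fold change (vertical axis, bars of 1 standard error) of the Wnt ligands (horizontal axis) in 3 comparisons, with filled points for called genes and dotted lines at the limit of 1 in either direction. Wnt3a is not drawn because it was not tested, and Wnt8a is the gene called higher in all 3 comparisons.

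Over the 10 ligands, 9 were tested between pEpiLCs and aEpiLCs. Wnt3, Wnt2b, Wnt5b, Wnt8a and Wnt11, 5 of the 9, were called higher in pEpiLCs, against 2.55% of the 15198 genes tested, and 1, Wnt4, was called lower, against 4.74%. The 2 states did not overlap for 7 of the 9, against 38.8% of all genes tested, and the median log2 fold change of the ligands tested was 2.83, against 0.012 over all genes. Without pEpiLC replicate 1 this median was 1.46, against 0.008 over all genes, and 6 ligands were called higher, Wnt6 in addition, and Wnt4 lower. Over all genes 389 were then called higher and 759 lower. Wnt11 had no aEpiLC library over the level needed for the test, so it was tested only because it was high in pEpiLCs. The ligands were chosen with earlier results of these data known. Their shares, here and in the other comparisons, therefore describe the list and are no independent test of it. These states differed in Activin A, in CHIR99021 and, by the labels, in KSR, and the effects of these cannot be told apart.

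Between pEpiLCs and EpiLCs, 8 of the 10 were tested. All but Wnt4, 7 of the 8, were called higher, against 7.71% of the 15288 genes tested, and 0 were called lower, against 8.13%. Among the 8 tested genes 7 did not overlap, against 58.7% of all genes tested, and their median log2 fold change was 3.89, against 0.017 over all genes. Without pEpiLC replicate 1, where 9 ligands could be tested, the count was also 7 and the median was 2.41, against 0.007 over all genes. The share of all genes called in that setting is not reported here. Wnt5a had no EpiLC library over the level needed for the test.

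Between aEpiLCs and EpiLCs, 8 of the 10 were tested. Wnt4, Wnt5a and Wnt8a, 3 of the 8, were called higher, against 7.25% of the 15301 genes tested, and 0 were called lower, against 5.24%. Among the 8 tested genes 5 did not overlap, a share close to the 56.3% of all genes tested, and the median log2 fold change was 0.89, against 0.002. No EpiLC library passed the level needed for the test for Wnt5a. The 3 comparisons share their libraries in pairs and are not independent of each other. Neither the labels nor the methods say whether replicates were separate cultures, so the p-values measure the spread between these libraries, which may be technical.

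**Figure D3:**
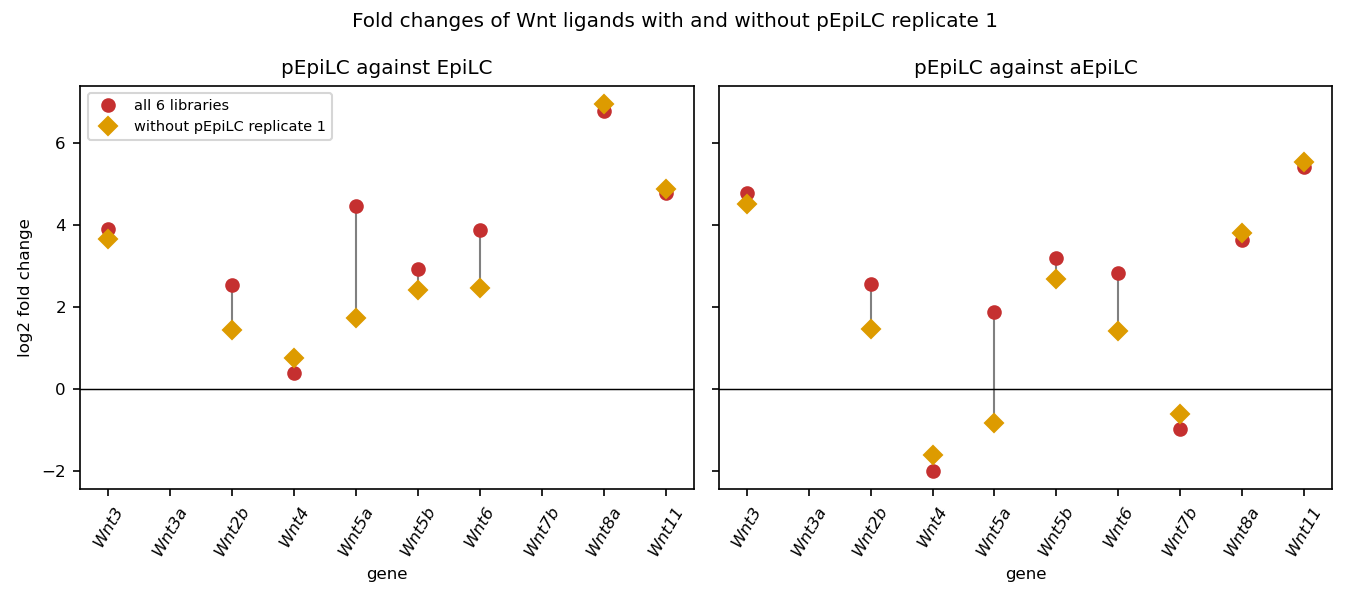
Log2 fold change (vertical axis) of each tested ligand (horizontal axis) in pEpiLCs against EpiLCs (left) and against aEpiLCs (right), with all 6 libraries (circles) and without pEpiLC replicate 1 (diamonds). Wnt3, Wnt5b, Wnt8a and Wnt11 move little, and Wnt5a against aEpiLCs changes from 1.87 to -0.84.

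The pEpiLC libraries differed among themselves by ligand. Replicate 1 was above the mean of replicates 2 and 3 for Wnt3a (52-fold), Wnt5a (17.9-fold), Wnt6 (6.03-fold), Wnt2b (4.46-fold), Wnt5b (2.32-fold) and Wnt3 (1.61-fold). It was below that mean for Wnt11 (0.763 times), Wnt8a (0.672 times), Wnt4 (0.304 times) and Wnt7b (0.304 times). The T gene, a streak marker and β-catenin target, was at 1090 CPM in replicate 1 and at 204 and 219 CPM in the others, so it moved in the direction of the first 6 ligands and not of Wnt8a or Wnt11.

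Levels of different ligands were compared per kilobase of merged exons (CPM per kb). The 10 ligands together came to 4.06 ± 0.242 CPM per kb (SD, n = 3) in EpiLCs, 8.05 ± 1.97 in aEpiLCs and 99.4 ± 8.77 in pEpiLCs. The lowest and highest sums were 3.79 and 4.25 in EpiLCs, 6.41 and 10.2 in aEpiLCs, and 91.5 and 109 in pEpiLCs, with no overlap. In pEpiLCs, Wnt8a was lowest in the library where Wnt3 was highest.

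In EpiLCs, Wnt3 (1.54 ± 0.381 CPM per kb) and Wnt5b (1.36 ± 0.106) had the highest means and overlapped, and Wnt8a (0.533 ± 0.0688) came next, below both. Wnt6 (0.174), Wnt2b (0.127), Wnt4 (0.112), Wnt11 (0.0894) and Wnt7b (0.0868) followed, each overlapping its neighbour, and Wnt5a (0.0287) and Wnt3a (0.00531) came last. In aEpiLCs, Wnt8a (4.64 ± 1.68) was above all other ligands. Wnt5b (1.11 ± 0.107), Wnt3 (0.842 ± 0.399), Wnt4 (0.576 ± 0.155) and Wnt6 (0.357 ± 0.0981) followed with overlapping neighbours, and below them Wnt5a (0.175), Wnt7b (0.148), Wnt2b (0.124), Wnt11 (0.0558) and Wnt3a (0.028) likewise.

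In pEpiLCs, Wnt8a (57.2 ± 12.3 CPM per kb), Wnt3 (22.8 ± 6.78) and Wnt5b (10.2 ± 5.44) followed each other without overlap. Wnt3a (2.64), Wnt6 (2.56) and Wnt11 (2.41) had similar means and overlapped, but replicate 1 carried the means of Wnt3a and Wnt6, which were 0.147 and 0.956 without it, while Wnt11 was at 2.62. Wnt2b (0.734), Wnt5a (0.641), Wnt4 (0.144) and Wnt7b (0.0737) were the lowest and each overlapped its neighbour, and without replicate 1 Wnt2b was at 0.34 and Wnt5a at 0.0968. As a share of the summed CPM per kb, Wnt8a made up 10.7% to 15.0% in EpiLCs, 52.3% to 64.1% in aEpiLCs and 39.6% to 67.9% in pEpiLCs. Wnt3 made up 30.3% to 45.0%, 7.08% to 12.2% and 19.4% to 28.0%, and Wnt5b 29.9% to 37.0%, 9.85% to 19.0% and 6.77% to 15.1%.

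**Figure D4:**
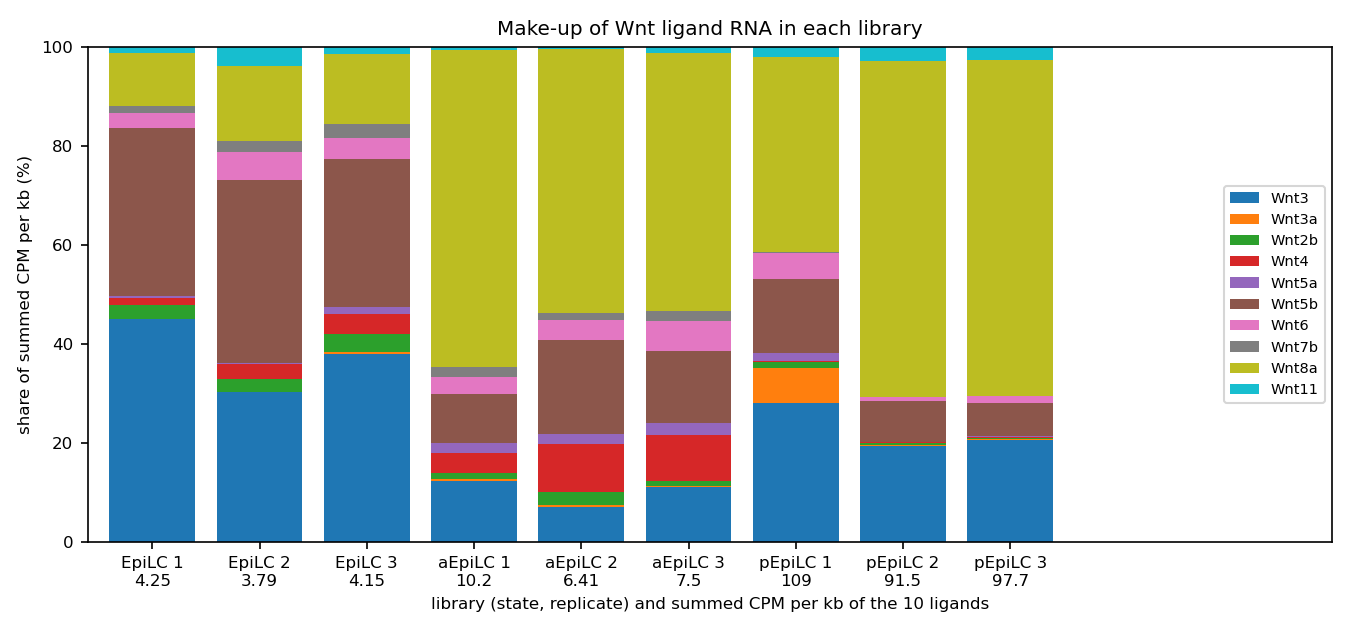
Share of each ligand in the summed CPM per kb of the 10 ligands (vertical axis, percent) in each library (horizontal axis, with the summed CPM per kb under each name). Wnt3 and Wnt5b take most of the EpiLC bars and Wnt8a most of the aEpiLC bars and of the bars of pEpiLC replicates 2 and 3.

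Among the Wnt genes in the count table, which leaves out Wnt1, 3 pairs are direct neighbours with 0 protein-coding genes between them. Wnt3 and Wnt9b lie 24.3 kb apart on chromosome 11 on opposite strands, and both were higher in pEpiLCs. Wnt9b, a kidney ligand, was at 0.14, 0.471 and 0.22 CPM in EpiLCs, at 0.235, 0.135 and 0 CPM in aEpiLCs and at 3.86, 1.78 and 1.75 CPM in pEpiLCs. It rose by 4.26 on the log2 scale against aEpiLCs (SE 0.699, adjusted p = 0.008) and by 3.15 against EpiLCs (SE 0.528, adjusted p = 0.00299), and by 3.79 and 2.68 without pEpiLC replicate 1. No aEpiLC library of Wnt9b passed the level needed for the test, so against aEpiLCs it was tested only because it was high in pEpiLCs.

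Wnt3a and Wnt9a lie 16.2 kb apart on chromosome 11, also on opposite strands. Wnt9a was at 1.73, 1.51 and 1.71 CPM in EpiLCs, at 2.06, 2.52 and 1.47 CPM in aEpiLCs and at 0.62, 1.13 and 1.33 CPM in pEpiLCs, lowest where Wnt3a was highest. Its log2 fold change in pEpiLCs was -0.97 against aEpiLCs (SE 0.357, adjusted p = 0.111) and -0.65 against EpiLCs (SE 0.321, adjusted p = 0.134). Wnt6 and Wnt10a lie 6.2 kb apart on chromosome 1 on the same strand. Wnt10a had counts of 0, 0 and 0 in EpiLCs, 0, 3 and 1 in aEpiLCs and 23, 1 and 3 in pEpiLCs, so both neighbours were highest in pEpiLC replicate 1.

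The remaining Wnt ligands were too low to be tested. Wnt2 had counts of 0, 1 and 1 in EpiLCs, 1, 2 and 2 in aEpiLCs and 74, 4 and 10 in pEpiLCs, a ratio of summed counts against aEpiLCs of 17.5 (counting interval 7.21 to 55.2) and of 4.08 (1.39 to 14.5) without pEpiLC replicate 1. Wnt10b had counts of 0, 0 and 1 in EpiLCs, 4, 14 and 14 in aEpiLCs and 0, 4 and 1 in pEpiLCs. Wnt7a, Wnt8b and Wnt16 had 1 to 20 counts in every library, and Wnt1 was not analysed here.

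The genes whose pattern over the 9 libraries was nearest to each ligand were found by the root mean square difference of log2 CPM after centring each gene on its own mean, among 13656 genes with a mean of at least 1 CPM. For Wnt3 they were Zyg11a (0.44), Fzd10 (0.49) and Adamts9 (0.53), and for Wnt11 Zyg11a (0.55), Ism2 (0.62) and Wnt3 itself (0.66). For Wnt8a they were Foxb1 (0.43), Nt5e (0.53) and Tgfbr3 (0.69), and for Wnt5b Rreb1 (0.21), Nedd9 (0.28) and Sh3pxd2a (0.32). For Wnt3a, whose pattern is 1 high library, the nearest were Pdgfra (0.43), Gm45889 (0.49) and Sprr2a3 (0.56). For Wnt2b they were Pik3c2b (0.29), Eml6 (0.29) and Sh3pxd2a (0.36), for Wnt6 Pdgfrl (0.42), Amot (0.45) and Itga8 (0.46), and for Wnt5a Sema6d (0.59), F5 (0.6) and Cdh2 (0.61). Wnt4 had Acta2 (0.34) and Cnn1 (0.37) among its 3 nearest genes. The points behind these values share their libraries and states, Wnt7b had a mean under 1 CPM and was not compared, and lower-count genes carry more noise.

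Of the 8 genes that release Wnt ligands, all of them tested, 2, Porcn and Wls, were called higher in pEpiLCs than in EpiLCs, against 7.71% of all genes, with a median log2 fold change of 0.23 over the list, or 0.14 without pEpiLC replicate 1. Between pEpiLCs and aEpiLCs, 1 of the 8 was called higher, against 2.55% of all genes, and 0 lower. It was Porcn, the enzyme that adds the lipid, at 0.233, 0.943 and 0.747 CPM in EpiLCs, 0.891, 0.72 and 0.69 CPM in aEpiLCs and 5.29, 5.35 and 4.55 CPM in pEpiLCs. Its log2 fold change was 2.71 (SE 0.223, adjusted p = 0.000415), and 2.69 without pEpiLC replicate 1. Wls, the carrier, was named after its values were seen. It was at 9.98, 11.3 and 9.54 CPM in EpiLCs, 31.6, 28.1 and 30.7 CPM in aEpiLCs and 54.9, 45.6 and 43.1 CPM in pEpiLCs, and rose by 1.55 on the log2 scale (SE 0.102, adjusted p = 9e-08) from EpiLC to aEpiLC and by 2.24 (SE 0.125, adjusted p = 4.19e-05) from EpiLC to pEpiLC, or 2.14 without pEpiLC replicate 1.

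Of 16 receptor and co-receptor genes tested, 2, Fzd10 and Ror2, were called higher in pEpiLCs than in aEpiLCs, against 2.55% of all genes, and 0 lower, against 4.74%. The 2 of 16 are not far from the 7.29% of all genes called in either direction, and the median log2 fold change of the list was -0.26. Fzd10 was at 7.88, 8.53 and 8.53 CPM in EpiLCs, 4.93, 1.93 and 2.48 CPM in aEpiLCs and 113, 43.6 and 47.1 CPM in pEpiLCs, with a log2 fold change of 4.45 (SE 0.501, adjusted p = 0.00162) and 3.87 without pEpiLC replicate 1. Ror2, a receptor for Wnt5a, was at 6.76, 6.08 and 7.51 CPM in EpiLCs, 22.5, 17.4 and 21.6 CPM in aEpiLCs and 67.5, 52.9 and 49.5 CPM in pEpiLCs. It rose by 1.47 on the log2 scale (SE 0.15, adjusted p = 0.00108), or 1.33 without that replicate.

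Of 15 extracellular inhibitors 9 were tested, and 3 were called higher and 2 lower in pEpiLCs against aEpiLCs, against 2.55% and 4.74% of all genes. Frzb, which binds Wnt ligands outside the cell, was at 0.657, 0.585 and 0.552 CPM in aEpiLCs and at 56.2, 3.48 and 2.62 CPM in pEpiLCs, a log2 fold change of 5.11 (SE 1.34, adjusted p = 0.0406) that was 2.35 without pEpiLC replicate 1. Notum, which removes the lipid of Wnt proteins, rose by 2.65 (SE 0.591, adjusted p = 0.0239), or 1.97 without it, and Apcdd1, a membrane inhibitor, by 1.53 (SE 0.334, adjusted p = 0.0223), or 1.08. Sfrp1, another secreted binder of Wnt, was lower, at 22.3, 17.8 and 17.9 CPM in aEpiLCs and 6.72, 5.91 and 6.11 CPM in pEpiLCs (log2 fold change -1.63, SE 0.142, adjusted p = 0.00055, or -1.68 without pEpiLC replicate 1). Sfrp4, of the same family and named after its values were seen, was the other gene called lower (-1.27, adjusted p = 0.0332). Without pEpiLC replicate 1 it had -0.97 and was not called, and Sostdc1 was called lower in its place (-2.77, adjusted p = 0.0192). Sostdc1 then had counts of 1 and 2 in pEpiLCs, under the detection floor, against 13, 8 and 11 in aEpiLCs. It was tested there only because it was higher in aEpiLCs, and its fitted value rests on few reads. Of 4 R-spondins 3 were tested and 1, Rspo3, was called higher, against the same 2.55%, by 3.61 (SE 0.708, adjusted p = 0.0153), or 2.53 without pEpiLC replicate 1.

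All 12 genes of the list of β-catenin targets and feedback were tested, and 6 were called higher in pEpiLCs than in aEpiLCs, against 2.55% of all genes, and 0 lower, against 4.74%, with a median log2 fold change of 1.49, or 0.97 without pEpiLC replicate 1. Sp5, a direct target, was at 0.328, 0.09 and 0.046 CPM in aEpiLCs and at 205, 38.7 and 38.3 CPM in pEpiLCs, a log2 fold change of 9.21 (SE 1.13, adjusted p = 0.00234), and T had 9.14 (SE 0.96, adjusted p = 0.00122). Cdx1 and Cdx2, posterior patterning genes, had 7.39 (SE 1.9, adjusted p = 0.038) and 4.93 (SE 1.19, adjusted p = 0.0313). Without pEpiLC replicate 1 these were 7.93, 7.89, 4.36 and 3.34, and the number called was again 6. Sp5, Cdx1 and Cdx2 had counts of 7, 2 and 1, of 0, 1 and 1, and of 5, 0 and 1 in the aEpiLC libraries, none over the level needed for the test. These 3 of the 6 were therefore tested only because they were high in pEpiLCs, and their fitted values depend on the prior count. The ratio of summed counts for Cdx1 was 191 (counting interval 52.6 to 1580), and 24.1 (6.15 to 207) without pEpiLC replicate 1.

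**Figure D5:**
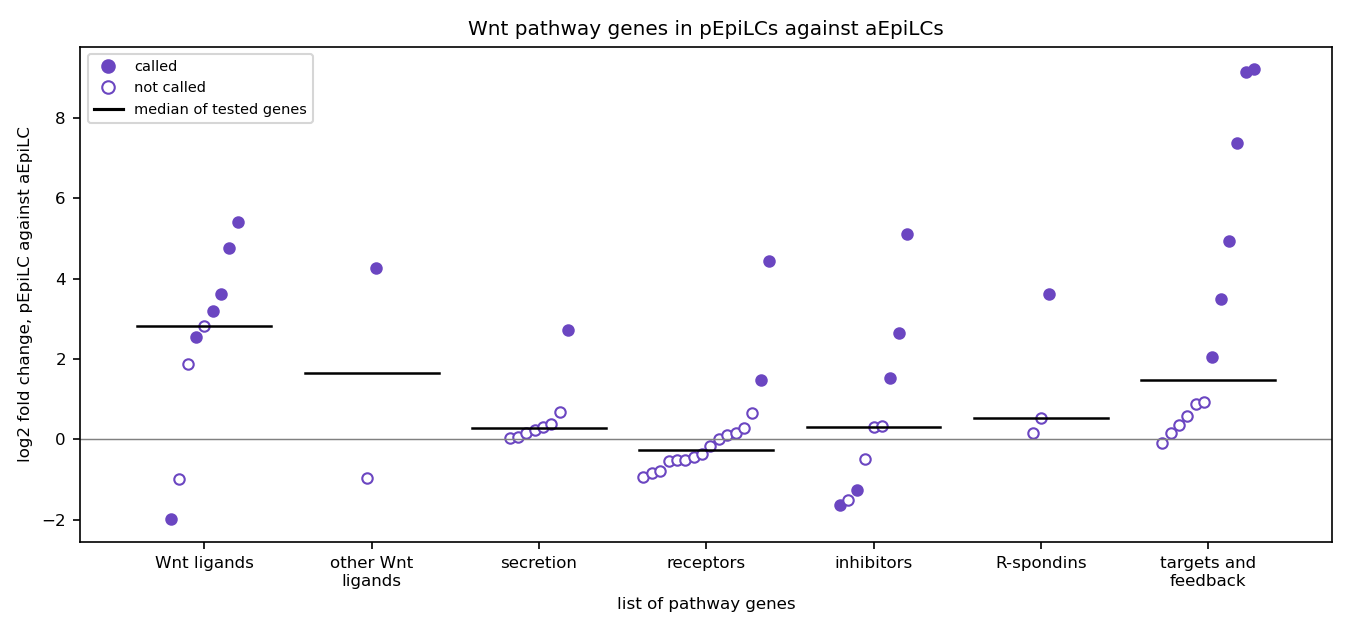
Log2 fold change of pEpiLCs against aEpiLCs (vertical axis) for every tested gene of the Wnt ligands and of 6 lists of pathway genes (horizontal axis), with filled points for called genes and a line at the median of the tested genes. The 9 ligands tested have a median of 2.83 (1.46 without pEpiLC replicate 1) and the 16 receptors one of -0.26 (-0.28 without it).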

How the data were processed

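Bulk RNA-seq of 9 libraries was analysed. The authors had paired-end reads of 150 bases sequenced, and the submitters' processing notes name GRCm38 (mm10), STAR 2.7.9a and RSEM 1.3.1. What the authors deposited is an expected count per gene symbol and library, without normalisation, and these were rounded here. Annotation and strandedness are not given in the sources used here. Gene positions were taken from GENCODE vM21 (GRCm38), where 22803 of 23453 symbols (97.2%) matched 1 gene, and start-site windows from RefSeq (GRCm38.p6).

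Each comparison was fitted on its own 6 libraries with TMM normalisation, filterByExpr and the quasi-likelihood test of edgeR 4.0.16 in R 4.3.3 (limma 3.58.1, DESeq2 1.42.0). A call needed a Benjamini-Hochberg adjusted p under 0.05 over all genes tested and a log2 fold change of 1 or more in size. Standard errors were the fold change over the root of its F, and CPM values were TMM-normalised over the 9 libraries. On simulated data for pEpiLCs against aEpiLCs (15198 genes, 200 changed by a log2 value of 2), 98% of changed genes were called, with 1 false call. Every simulated gene had the same dispersion, the median of the data, and no library stood apart. The 98% therefore does not hold for ligands with more spread between libraries. Total counts had a median of 21675315 per library, so levels near the floor of 3 counts carry large counting error.

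The members and gene lists were chosen with earlier results of these data known. All members and other Wnt ligands are named, with, of each other pathway list, up to 4 genes called between pEpiLCs and aEpiLCs with the largest log2 fold change and a mean of at least 1 CPM, and the 3 nearest genes of each member, of which 1 is not reported here. The alternatives tried were DESeq2, size factors by RLE, the likelihood ratio test of edgeR, no filter, at least 10 counts in every library, all 9 libraries in one fit, the replicate number as a block, no limit on fold change and leaving out each library. The pathway lists without pEpiLC replicate 1 were added after seeing the data.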

Additional observations from a re-analysis of the deposited data

How the results depend on the processing

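Of 309 alternative values for 25 ligand results, 282 kept direction and call, 14 lost the call, 10 gained it and 3 turned direction. Wnt3, Wnt5b, Wnt8a and Wnt11 kept their calls in pEpiLCs under every alternative that gave a value. The turned values were Wnt5a in pEpiLCs against aEpiLCs without pEpiLC replicate 1 (-0.84) and Wnt2b in aEpiLCs against EpiLCs without EpiLC replicate 3 (0.15) or aEpiLC replicate 3 (0.22), and leaving out single libraries gave -0.84 to 2.38 and -0.34 to 0.22. Wnt6 between pEpiLCs and aEpiLCs gained the call under 7 of 13 alternatives (adjusted p = 0.000397 with DESeq2 to 0.174), and Wnt3 between aEpiLCs and EpiLCs was called lower without EpiLC replicate 2 (-1.05) or aEpiLC replicate 1 (-1.27). Among the inhibitors, Sostdc1 in pEpiLCs against aEpiLCs turned from 0.31 to -2.77 without pEpiLC replicate 1. The second value rests on pEpiLC counts of 1 and 2, under the detection floor.

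With at least 10 counts in every library, which removes ligands low in any library, 3 ligands were called between pEpiLCs and aEpiLCs. Over all genes 850 were called there, in place of 1108. The same filter gave 3 ligands between pEpiLCs and EpiLCs. It gave 1 between aEpiLCs and EpiLCs, where 1259 genes in place of 1911 were called. The numbers of ligands and genes tested under this filter are not reported here, so the counts give no share. With no limit on fold change 2369, 6759 and 7130 genes were called in these comparisons, in place of 1108, 2421 and 1911. Leaving out 1 library gave 4 to 7, 5 to 8 and 3 to 4 ligands and 514 to 1148, 1989 to 2565 and 1861 to 1969 genes. Wnt3a passed the test between pEpiLCs and EpiLCs with no filter (adjusted p = 0.0199) and without pEpiLC replicate 2 (0.013), but not in the other 3 settings that could test it (up to 0.114). Between pEpiLCs and aEpiLCs it was called in 1 of 5 settings, without pEpiLC replicate 2 (adjusted p = 0.035), with 0.0549 to 0.201 in the others.

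With the replicate number as a block, 7, 7 and 3 ligands and 1123, 2299 and 1878 genes were called. Deviations of same-numbered libraries from their state's mean correlated at 0.082 to 0.193 for pEpiLCs and aEpiLCs, where 6 of 6 libraries correlated best with their own number, at 0.005 to 0.039 for pEpiLCs and EpiLCs, where 5 of 6 did, and at -0.047 to 0.02 for aEpiLCs and EpiLCs, where 2 of 6 did. Not every pair was over 0.1 in any comparison and the methods name no pairing, so the main fits did not pair libraries by number. Whether same-numbered pEpiLC and aEpiLC libraries were prepared together was not tested.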
